A study of Mus musculus with 12 samples.

Results

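The genes of the proteasome were followed through a mouse T cell disease model, experimental autoimmune encephalomyelitis (EAE), which is widely used as a model of multiple sclerosis. Members were all genes with a non-control array probe whose gene name begins with Psma to Psmg and a number. The rule found 49 genes on 62 probes, among 30101 gene names on the array, and where a gene had several probes the one with the highest mean signal was used. Of the 49 genes, 47 passed the filter on dim probes, which asked for 1 or more groups in which all 3 arrays lay well above background. They comprised 31 constitutive subunits of the core and its cap, 5 immunoproteasome genes (3 catalytic subunits and the 2 genes of the activator PA28), 3 genes of other activators and an inhibitor, 7 assembly chaperones, and Psmc3ip, which matches the name rule but encodes a recombination factor and no subunit. The remaining 2 genes, the testis subunit Psma8 and the thymus subunit Psmb11, were not tested: Psma8 was well above background on 1 of 12 arrays and Psmb11 on 0.

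The proteasome is the large protease that degrades ubiquitin-tagged proteins. Its barrel is built of outer alpha rings, which gate the entrance, and inner beta rings, which hold the cutting sites, and a cap made of an ATPase ring and non-ATPase subunits recognises, deubiquitinates and unfolds substrates. In cells exposed to interferon-gamma, and constitutively in many lymphocytes, the catalytic subunits encoded by Psmb6, Psmb5 and Psmb7 are replaced by those of Psmb9, Psmb8 and Psmb10. This immunoproteasome, together with the PA28 cap of Psme1 and Psme2, favours peptides that fit MHC class I molecules, and in T cells it has been linked to cytokine production and helper cell differentiation.

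Total RNA was measured on 12 single-colour arrays in 4 groups of 3, with replicates from 3 independent experiments. The immunised group was CD4+ T cells from the central nervous system (CNS) of C57BL/6 mice at peak EAE after immunisation with the MOG35-55 peptide of myelin oligodendrocyte glycoprotein. The transfer group was CD4+ T cells re-isolated at peak EAE from the CNS of Rag1-/- mice, which make no T or B cells of their own, after transfer of cultured Th17 cells. The culture group was Th17 cells differentiated in vitro from naive B6.2d2 CD4+ T cells, and the naive group was CD4+ T cells labelled as naive, taken from B6.2d2 spleens. B6.2d2 mice carry a transgenic T cell receptor specific for MOG, so the transfer, culture and naive groups share 1 receptor and a strain that the immunised group does not. Age, sex, pooling of animals and the way in which CD4+ cells were purified are not given in the sources used here.

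Each replicate number marks 1 of 3 slides of 4 arrays, with 1 array of each group at a position fixed by group, so the effect of a position on the slide cannot be told apart from that of the group. Between 57.1% and 64.9% of non-control spots were well above background per array, and arrays of 1 group correlated at 0.9687 or more over all probes, with culture replicate 3 in the lowest pair. Precision is limited by 3 arrays per group. All 8 genes of a T cell marker list, among them Cd3e and Cd4, were well above background on every array, with summed linear levels (relative to each array's 75th percentile) of 288 to 429 in immunised, 194 to 285 in transfer, 462 to 490 in culture and 432 to 514 in naive samples. Macrophage and monocyte markers also differed: 8 of 9 on the array were well above background on all 3 arrays of each CNS group, 5 in culture and 3 in naive samples, with summed levels of 197 to 409 in immunised, 175 to 302 in transfer, 18.9 to 29.8 in culture and 23.6 to 97.1 in naive samples. Adgre1, Fcgr1, Mertk and Cd163 were well above background on none of the naive arrays. Cd163 was also well above it on no immunised and no culture array, and Mertk on no culture array. The summed level of 6 neutrophil markers was 404 to 501 in immunised, 4.48 to 163 in transfer, 10.9 to 17 in culture and 1.52 to 3.08 in naive samples. The 8 microglia markers, all well above background on every CNS array, summed to 117 to 146 in immunised, 130 to 146 in transfer and, in culture, to between 82.2 and a highest sum below that of every immunised sample, against 82.5 to 126 in naive samples. In the fit 6 of these 8 were called higher in immunised and 7 in transfer than in naive samples. B cell markers summed to 1.34 to 1.5 in immunised, 0.387 to 0.856 in transfer, 0.272 to 1.88 in culture and 1.04 to 2.05 in naive samples, with Ms4a1 and Pax5 well above background on no transfer array. CD8 and NK cell markers summed to 0.495 to 0.873 in immunised, 0.222 to 1.41 in transfer, 0.225 to 0.379 in culture and 1.42 to 2.33 in naive samples. The sum, in which the brightest marker weighs most, was thus highest in naive samples, but most single markers did not follow it in the CNS groups. Of 4 tested, 2 were called higher and 1 lower than in naive samples, in immunised and in transfer samples alike. The median log2 differences were 2.11 and 0.59. Dendritic cell markers, 5 on the array, summed to 4.23 to 5.48 in immunised and 5.46 to 12.9 in transfer samples. Their sums were 0.619 to 0.961 in culture and 0.0916 to 0.237 in naive samples. Of 4 tested, 4 were called higher in immunised and 2 in transfer than in naive samples. Proteasome genes are expressed by all these cells as well, and the part of these markers in any CNS result below was not tested. In such bulk samples fewer cells of a type and less RNA per cell cannot be told apart.

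Upstream sequences of the gene pairs Psmb8 and Psmb5 and Psmb9 and Psmb6 are shown because the balance within these pairs is described further below. Each is the 250 bases before the annotated start (RefSeq, GRCm38.p6), written along the gene's strand, with matches to the motifs in capitals: TTCNNNGAA (GAS, the interferon-gamma activated site), TGACNNNGC (ARE, bound by Nrf factors) and the ISRE, bound by interferon regulatory factors and searched as a pair of GAAA separated by any 2 bases, all on both strands.
Psmb8, chr17:34197945-34198194, plus strand: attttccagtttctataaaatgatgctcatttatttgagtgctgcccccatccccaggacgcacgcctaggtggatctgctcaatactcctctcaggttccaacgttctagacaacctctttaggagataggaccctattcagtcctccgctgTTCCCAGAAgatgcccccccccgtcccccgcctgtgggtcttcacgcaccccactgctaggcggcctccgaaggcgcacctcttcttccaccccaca
Psmb5, chr14:54617996-54618245, minus strand: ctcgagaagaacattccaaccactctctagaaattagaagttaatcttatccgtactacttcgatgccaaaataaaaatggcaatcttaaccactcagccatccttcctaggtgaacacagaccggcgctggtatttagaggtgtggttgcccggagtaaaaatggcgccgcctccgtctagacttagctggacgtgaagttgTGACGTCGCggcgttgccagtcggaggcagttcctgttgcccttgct
Psmb9, chr17:34187331-34187580, minus strand: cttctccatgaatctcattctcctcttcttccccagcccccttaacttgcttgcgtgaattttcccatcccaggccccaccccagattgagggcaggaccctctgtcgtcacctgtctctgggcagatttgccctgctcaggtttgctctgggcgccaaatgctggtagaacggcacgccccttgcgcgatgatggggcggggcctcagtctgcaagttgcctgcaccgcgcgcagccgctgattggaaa
Psmb6, chr11:70525107-70525356, plus strand: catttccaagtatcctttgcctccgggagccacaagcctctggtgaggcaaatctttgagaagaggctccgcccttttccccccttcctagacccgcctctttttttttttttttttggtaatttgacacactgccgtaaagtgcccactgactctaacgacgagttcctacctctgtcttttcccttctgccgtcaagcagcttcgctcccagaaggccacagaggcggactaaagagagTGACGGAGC
The Psmb8 window holds a GAS match, TTCCCAGAA, from base 97 to base 89 before the start, and those of Psmb5 and Psmb6 hold the ARE matches TGACGTCGC and TGACGGAGC. The Psmb9 window holds none of these letters. Among 32851 promoters of the table, 7.02% held the GAS letters, 2.98% the ISRE letters and 10.2% the ARE letters. Of 41 member genes found in the table (25 constitutive and all 5 immunoproteasome and PA28 genes), other matches were a GAS in Psmg1, an ISRE in Psmb3, Psmd4 and Psmd9, and an ARE in Psmc6, Psmd12 and Psmd9. A match describes letters only.

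Levels are given as log2 processed signal minus the array's 75th percentile, so a level of 0 is that percentile, and levels of different probes are not set against each other. No constitutive or immunoproteasome gene differed by as much as a log2 difference of 1 between any pair of groups compared. Over 12 arrays the level of 1 immunoproteasome or PA28 gene correlated with that of another at a median r of 0.69 (10 pairs, 0.12 to 0.83), and that of 1 constitutive gene with another at a median of 0.43 (465 pairs, −0.65 to 0.95). Between the classes the median was 0.03 (155 pairs, −0.80 to 0.81). These points share arrays and scaling, and the correlations are descriptions only. The heat map of all tested members shows the same split, with naive replicates 2 and 3 below the mean in most constitutive rows, and its colour is clipped at a difference of 1.5.

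**Figure D1:**
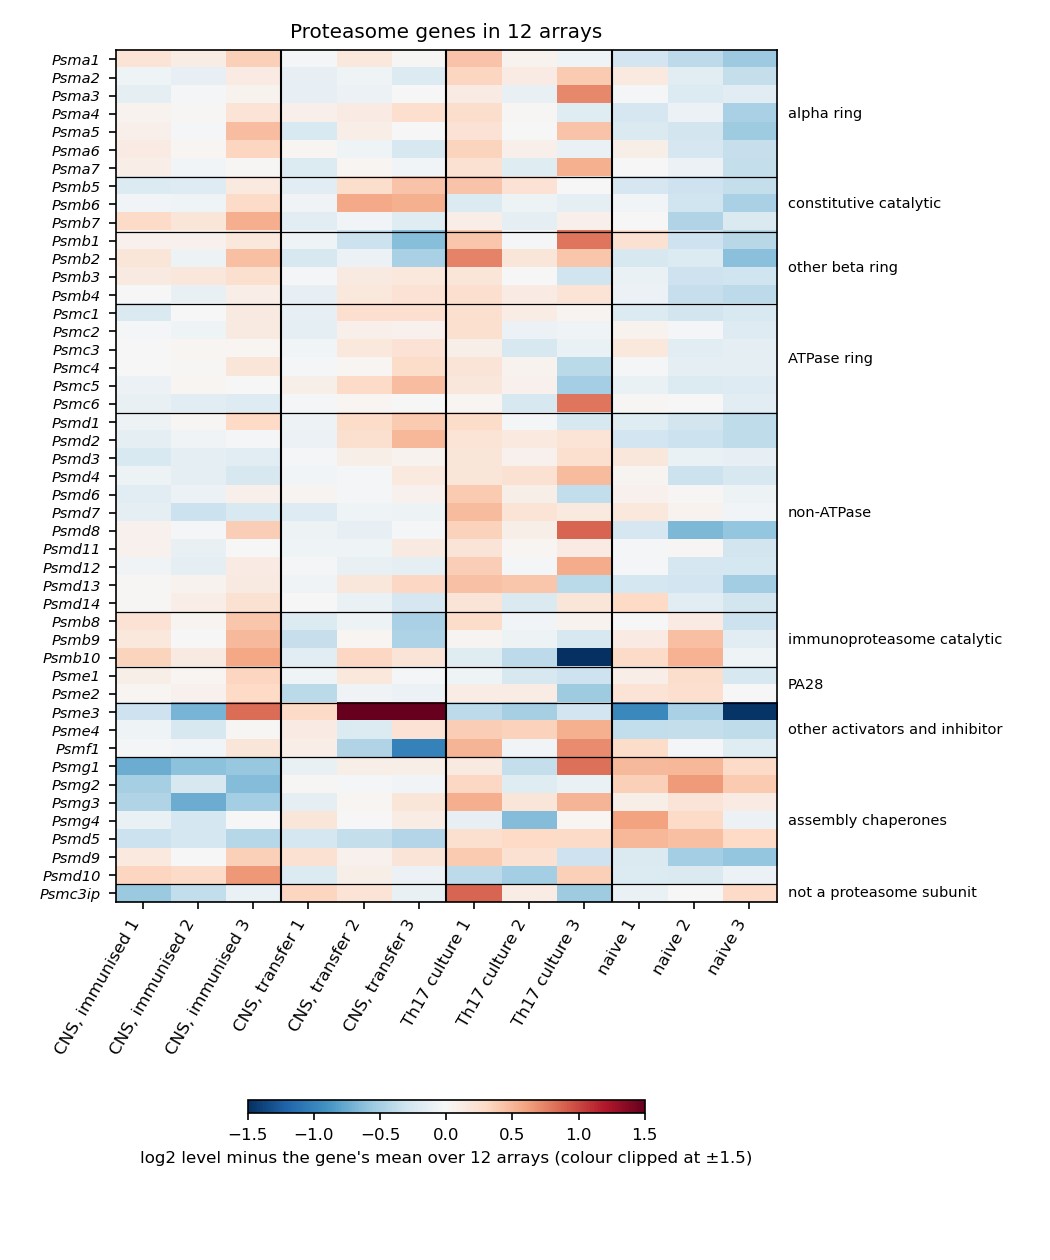
Each row is 1 of 47 tested genes, grouped by role, and each column 1 of 12 arrays, and the colour is the log2 level minus the gene's mean over the 12 arrays. The 4 values farthest from a gene's mean are Psme3 in transfer replicates 2 and 3 and in naive replicate 3, and Psmb10 in culture replicate 3.

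The catalytic and PA28 genes were all bright in every group. Psmb8 (probe at chr17:34337771-34337830, plus strand, mm9), the inducible chymotrypsin-like subunit, had levels of 5.07, 4.90 and 5.27 in immunised, 4.65, 4.78 and 4.36 in transfer, 5.13, 4.82 and 4.91 in culture and 4.85, 4.97 and 4.53 in naive samples. Its highest mean was that of the immunised group and its lowest that of the transfer group, and these 2 groups did not overlap. Psmb9 (chr17:34319174-34319233, minus strand), the inducible subunit that replaces the caspase-like Psmb6, had 4.87, 4.72 and 5.20 in immunised, 4.37, 4.75 and 4.26 in transfer, 4.75, 4.64 and 4.47 in culture and 4.84, 5.17 and 4.54 in naive samples, and every pair of groups overlapped. A dimmer Psmb9 probe had means of −2.95 in immunised, −3.28 in transfer, −2.76 in culture and −2.20 in naive samples. Psmb10 (chr8:108459677-108459736, minus strand), the inducible trypsin-like subunit, had 5.97, 5.78 and 6.23 in immunised, 5.49, 5.96 and 5.84 in transfer, 5.46, 5.25 and 4.07 in culture and 5.93, 6.16 and 5.58 in naive samples. Culture was lowest, with replicate 3 far under its fellows.

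Of the PA28 genes, Psme1 (alpha subunit; chr14:56200194-56200253, plus strand) averaged 4.91 ± 0.16 in immunised, 4.79 ± 0.12 in transfer, 4.56 ± 0.13 in culture and 4.80 ± 0.26 in naive samples (SD, n = 3 each). Psme2 (beta subunit; chr14:56206296-56206355, minus strand) averaged 6.45 ± 0.15, 6.13 ± 0.19, 6.21 ± 0.37 and 6.47 ± 0.13 in the same order of groups. Among their constitutive counterparts, Psmb5 (chymotrypsin-like; chr14:55232957-55233016, minus strand) had 5.22, 5.22 and 5.57 in immunised, 5.25, 5.68 and 5.85 in transfer, 5.85, 5.64 and 5.43 in culture and 5.18, 5.11 and 5.07 in naive samples. All 9 other arrays lay above the naive ones. Psmb6 (caspase-like; chr11:70341093-70341152, plus strand) had 4.96, 4.94 and 5.29 in immunised, 4.95, 5.57 and 5.53 in transfer, 4.79, 4.92 and 4.87 in culture and 4.95, 4.70 and 4.51 in naive samples. Psmb7 (trypsin-like; chromosome 2, minus strand) had 2.50, 2.39 and 2.76 in immunised, 2.05, 2.17 and 2.02 in transfer, 2.31, 2.06 and 2.29 in culture and 2.20, 1.75 and 1.99 in naive samples, and immunised samples were above all others.

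**Figure D2:**
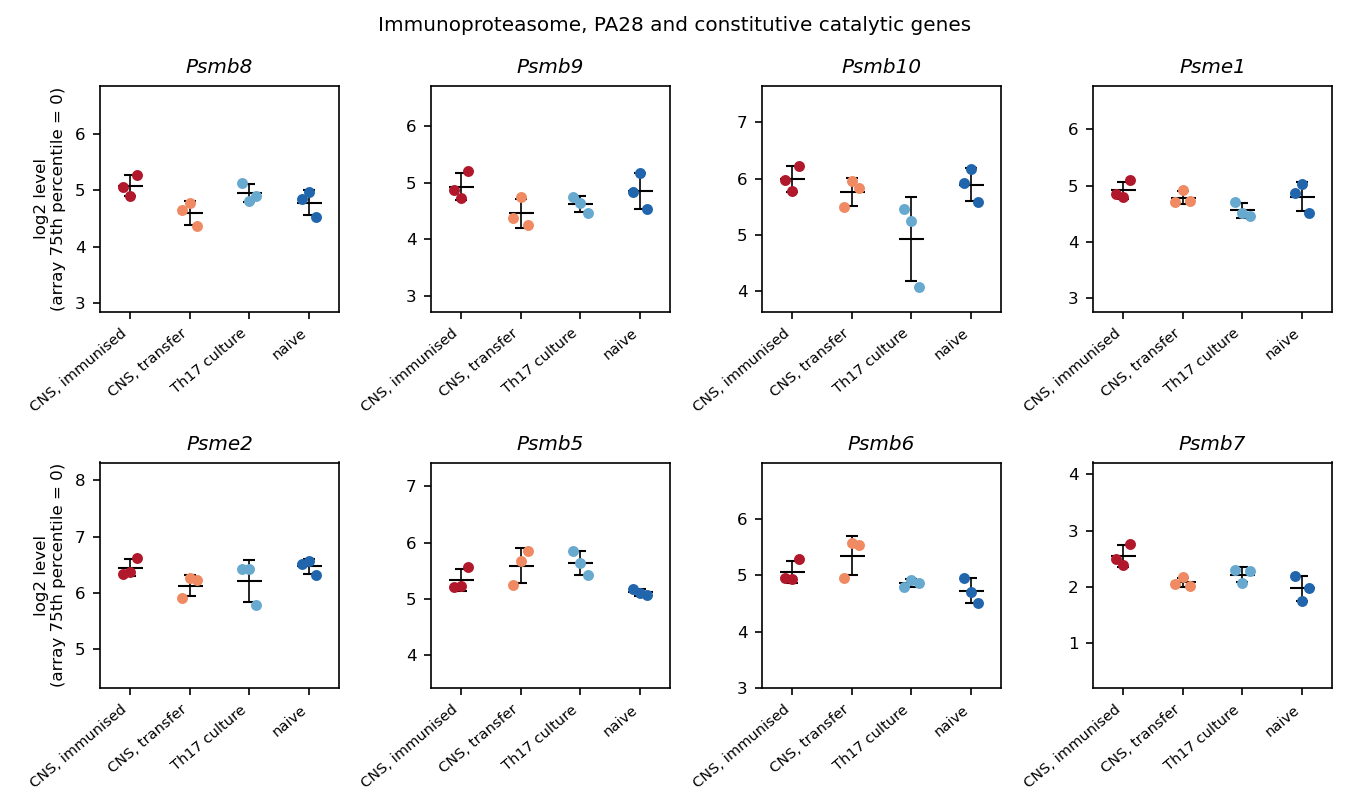
Points are the log2 levels (array 75th percentile = 0) of 8 genes on the 3 arrays of each group, and bars are the mean ± SD. All panels span 4 log2 units, and only Psmb10 in culture shows a spread of over 1 unit within a group.

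After differentiation in culture, Th17 cells had higher levels of some constitutive subunits and lower Psmb10 than naive cells. Of all 47 tested members 9 rose and 1 fell, against 40.1% of all 18631 genes tested called in either direction. Of 31 constitutive genes 8 rose and 0 fell, by a limma fit over all genes with Benjamini-Hochberg adjustment called under 0.05, against a background of 19.7% of all genes called higher and 20.4% called lower. The share of risers was thus near the background, but 30 of 31 differences were positive, against 8541 of all 18631 genes tested. The constitutive median log2 difference was 0.31, against −0.08 over all genes tested. Within the 3 slides the constitutive median was 0.28, 0.27 and 0.37. Of the 5 immunoproteasome and PA28 genes 0 rose and 1 fell, with a median of −0.25 (−0.10, −0.51 and −0.07 within slides).

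By role, the rises in culture were in the alpha ring (2 of 7), the non-catalytic beta ring (2 of 4) and the non-ATPase cap (4 of 11), while 0 of 6 ATPase and 0 of 3 constitutive catalytic genes passed. Psmd8, a lid subunit, had 3.08, 2.82 and 3.62 in culture, against 2.49, 2.07 and 2.16 in naive samples, a log2 difference of 0.93 ± 0.22 (SE, adjusted p = 0.00626 in limma). It was the largest rise of any constitutive gene and was called under all 23 alternatives. Psmb2, a structural beta subunit, had 1.54, 0.98 and 1.21 in culture, against 0.56, 0.59 and 0.16 in naive samples, a difference of 0.81 ± 0.21 (adjusted p = 0.012). The groups did not overlap for either gene.

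Psma1 and Psma5 of the alpha ring rose by 0.55 ± 0.17 and 0.56 ± 0.19 (adjusted p = 0.0228 and 0.0372), Psmb4 of the beta ring by 0.47 ± 0.15, and the cap subunits Psmd2, a scaffold of the base, and Psmd4, a ubiquitin receptor, by 0.52 ± 0.16 and 0.46 ± 0.16. Psmd12 was at the threshold (adjusted p = 0.04996) with overlapping groups. Psmb5 missed it, with a difference of 0.52 (95% interval 0.10 to 0.95, adjusted p = 0.0525), as did Psmb6 at 0.14 (−0.31 to 0.59) and Psmb7 at 0.24 (−0.13 to 0.61). In the ATPase ring the lowest adjusted p-values were those of Psmc1 at 0.37 ± 0.16 and Psmc6 at 0.25 ± 0.23, neither called.

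Psmb10 fell by 0.97 ± 0.33 on the log2 scale in culture relative to naive samples (adjusted p = 0.0388). Without culture replicate 3 the difference was −0.54 with an adjusted p of 0.0839. The other 4 immunoproteasome genes were not called: Psmb8 differed by 0.17 (95% interval −0.24 to 0.57), Psmb9 by −0.23 (−0.70 to 0.24), Psme1 by −0.25 (−0.63 to 0.13) and Psme2 by −0.26 (−0.71 to 0.19). Psme4, the nuclear activator PA200, rose: it had −0.04, −0.07 and 0.12 in culture, against −0.79, −0.76 and −0.79 in naive samples, a difference of 0.78 ± 0.15 (adjusted p = 0.00244). The inhibitor Psmf1 differed by 0.37 ± 0.29 and was not called.

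The constitutive count in culture depended on single arrays and on scaling. It was 2 without naive replicate 2, 1 without naive replicate 3, 3 without culture replicate 1 and 4 without immunised replicate 1. It was also 4 with slide as a block, and 2 under median scaling and under quantile normalization. The genes that lost their call under quantile normalization differed there by 0.11 (Psmb4) to 0.34 (Psma5), against 0.47 and 0.56 for these genes in the main fit. Single calls were kept under 4 (Psmd12) to 23 (Psmd8) of 23 alternatives. The Psmb10 call was lost without naive replicates 1 or 2, culture replicate 3, transfer replicates 2 or 3, or immunised replicates 1 or 2. The difference itself was −0.95 and −0.83 without naive replicates 1 and 2 and stayed at −0.97 without the transfer and immunised arrays, which enter only through the shared estimate of spread.

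**Figure D3:**
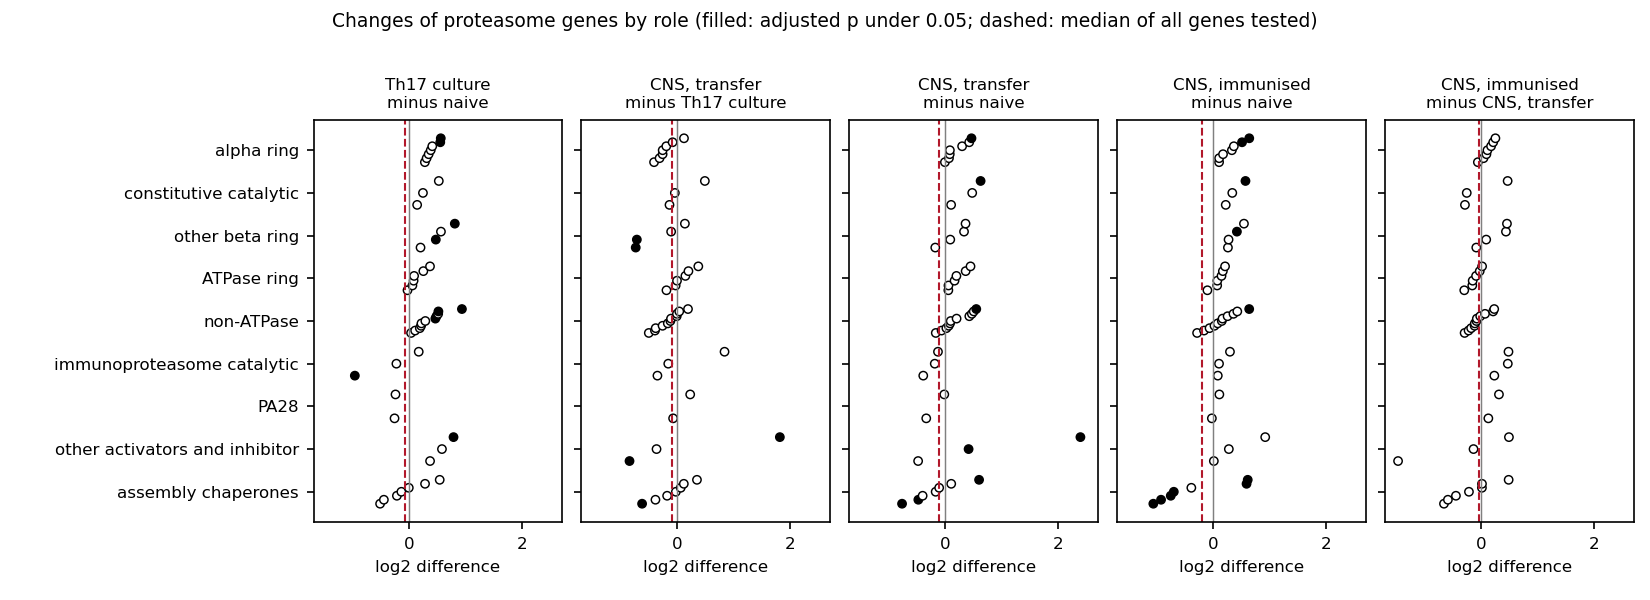
Each point is the log2 difference of 1 gene in the comparison named above the panel, by role, filled where the adjusted p was under 0.05, and the dashed line is the median of all genes tested. The most distant points are Psme3 in the transfer group, at 2.40 against naive cells, and Psmg1 and Psmg2 are among the lowest of the immunised group, at −1.06 and −0.93.

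Between transferred cells in the CNS and cultured Th17 cells, few proteasome genes were called. Of all 47 tested members 1 rose and 4 fell, against 28.3% of all genes tested called in either direction. The 1 that rose was Psme3, whose differences are not counted as a result on the gene, as described further below. Of 31 constitutive genes 0 rose and 2 fell, against 12.8% and 15.5% of all genes tested called higher and lower, with a median of −0.11, beside −0.10 over all genes. The median was −0.35 in slide 1 and 0.04 and 0.02 in the other slides. Leaving out 1 array gave medians of −0.15 to −0.08. At an unadjusted p under 0.05, 7 of 31 passed, against 39.8% of all genes tested. The 2 that fell are structural beta subunits: Psmb1 had 3.67, 3.41 and 3.09 in transfer, against 4.14, 3.71 and 4.53 in culture samples (−0.74 ± 0.25, adjusted p = 0.0482), and Psmb2 had 0.56, 0.70 and 0.31 in transfer, against 1.54, 0.98 and 1.21 in culture samples (−0.72 ± 0.21, adjusted p = 0.0283). Neither gene's groups overlapped.

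No immunoproteasome or PA28 gene was called between these groups by limma, and 1 of 5 passed at an unadjusted p under 0.05. That was Psmb10, with a difference of 0.84 (95% interval 0.11 to 1.57, adjusted p = 0.0838) and groups that did not overlap. Without culture replicate 3 the difference was 0.41. Psmb8 differed by −0.35 (−0.76 to 0.05), Psmb9 by −0.16 (−0.63 to 0.31), Psme1 by 0.23 (−0.15 to 0.61) and Psme2 by −0.08 (−0.52 to 0.37). Among constitutive catalytic genes Psmb6 differed by 0.49 (0.04 to 0.94, adjusted p = 0.0974), Psmb5 by −0.04 and Psmb7 by −0.14. In the other roles the lowest adjusted p-values, none called, were those of Psma2 at −0.41 ± 0.17 and Psma3 at −0.32 ± 0.20 (alpha ring), Psmc5 at 0.37 ± 0.19 and Psmc3 at 0.20 ± 0.16 (ATPase ring), and Psmd7 at −0.38 ± 0.14 and Psmd8 at −0.51 ± 0.22 (cap).

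The inhibitor Psmf1 fell in transfer relative to culture samples, by 0.85 ± 0.29 on the log2 scale (adjusted p = 0.0478), although its groups overlapped. The call was lost under 13 of 23 alternatives (adjusted p 0.0136 to 0.169), among them leaving out any array but culture replicate 2 or transfer replicate 1, and without transfer replicate 3 the difference was −0.57. The count of 2 constitutive genes that fell was 0 without culture replicate 1 or without transfer replicate 3, 4 without culture replicate 2, and 1 without each of naive replicates 2 and 3, transfer replicates 1 and 2 and immunised replicates 1, 2 and 3. With slide as a block it was 1. Leaving out culture replicate 1 called 1 immunoproteasome gene, Psmb10, as higher, and leaving out transfer replicate 1 called 1 constitutive gene as higher.

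Relative to naive cells, 6 of all 47 tested members rose and 2 fell in transferred CNS cells, against 47.7% of all genes tested called in either direction. The 6 that rose include Psme3, which is set aside further below. Among constitutive genes there were 3 that rose and 0 that fell, against 21.2% of all genes tested called higher and 26.5% called lower. Of the constitutive differences 27 of 31 were positive, against 8275 of all 18631 genes tested. The median was 0.16, beside −0.12 over all genes, and −0.02, 0.22 and 0.38 within the slides. Psma1 had 3.98, 4.14 and 4.01 in transfer, against 3.70, 3.59 and 3.45 in naive samples (0.46 ± 0.17, adjusted p = 0.0393). Psmd2 had 3.28, 3.60 and 3.86 in transfer, against 3.07, 3.03 and 2.98 in naive samples (0.55 ± 0.16, adjusted p = 0.0161). Both genes were higher on every transfer array than on any naive array. Psmb6 rose by 0.63 ± 0.20 (adjusted p = 0.0258), but transfer replicate 1 lay within the naive range. Psmb5, at 0.48 (95% interval 0.05 to 0.90, adjusted p = 0.0635), and Psmb7, at 0.10 (−0.27 to 0.47), were not called.

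All 5 immunoproteasome and PA28 genes had negative differences between transfer and naive samples, with a median of −0.19, and 0 were called or passed at an unadjusted p under 0.05 in limma, against 54.2% of all genes tested at that p. Psmb9 differed by −0.39 (95% interval −0.86 to 0.08), Psme2 by −0.34 (−0.79 to 0.11), Psmb8 by −0.19 (−0.59 to 0.22), Psmb10 by −0.13 (−0.86 to 0.60) and Psme1 by −0.02 (−0.40 to 0.36). Under quantile normalization 1 of these genes was called lower. With the mean of all probes of a gene 2 were, Psme2 at −0.88 (adjusted p = 0.0195 in limma) and Psmb9 at −0.73 (adjusted p = 0.0451). Dim probes weigh in these means. The 3 Psme2 probes, from bright to dim, had means of 6.13, 3.60 and −0.40 in transfer and 6.47, 4.28 and 1.23 in naive samples. Those of Psmb9 had 4.46 and −3.28 in transfer and 4.85 and −2.20 in naive samples. In other roles, uncalled genes with the lowest adjusted p-values were Psma4 at 0.42 ± 0.17, Psmb4 at 0.36 ± 0.15, Psmb3 at 0.33 ± 0.16, Psmc5 at 0.45 ± 0.19, Psmc1 at 0.36 ± 0.16 and Psmd1 at 0.47 ± 0.19. Psme4 rose by 0.41 ± 0.15 (adjusted p = 0.0464), a call lost under 14 of 23 alternatives (adjusted p 0.00784 to 0.17).

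The count of 3 constitutive genes was 0 without transfer replicate 3, 1 without naive replicate 2, naive replicate 3 or transfer replicate 2, 6 without transfer replicate 1 and 8 without culture replicate 3. Under median scaling it was 0, with log2 differences of 0.46, 0.54 and 0.62 for Psma1, Psmd2 and Psmb6 that were close to those above. Other scalings gave smaller differences for Psma1 and Psmb6, neither called. These were 0.286 and 0.275 under quantile normalization, and 0.312 and 0.293 under normexp with quantile, while Psmd2 kept its call.

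In CNS cells of immunised mice 7 of all 47 tested members rose and 4 fell relative to naive cells, against 48.4% of all genes tested called in either direction. Of 31 constitutive genes 5 rose and 0 fell, against 20.6% of all genes tested called higher and 27.7% called lower. Of the constitutive differences 27 of 31 were positive, against 7684 of all 18631 genes tested. The median was 0.21, beside −0.19 over all genes, and 0.03, 0.20 and 0.48 within the slides. Psma1 had 4.20, 4.11 and 4.35 in immunised, against 3.70, 3.59 and 3.45 in naive samples (0.64 ± 0.17, adjusted p = 0.00904). It was called under all 23 alternatives. Psmb7, the constitutive trypsin-like subunit, rose by 0.57 ± 0.17 (adjusted p = 0.0164) without overlap of the groups. Psmd8 rose by 0.64 ± 0.22 (adjusted p = 0.032), Psma5 by 0.51 ± 0.19 (adjusted p = 0.045) and Psmb3 by 0.42 ± 0.16 (adjusted p = 0.0473).

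No immunoproteasome or PA28 gene was called between immunised and naive samples in limma, and 0 passed at an unadjusted p under 0.05, against 55.4% of all genes tested. Psmb8 differed by 0.30 (95% interval −0.11 to 0.70), Psmb9 by 0.08 (−0.39 to 0.55), Psmb10 by 0.10 (−0.63 to 0.83), Psme1 by 0.11 (−0.27 to 0.49) and Psme2 by −0.03 (−0.47 to 0.42). The class median was 0.10, and 0.03, −0.23 and 0.64 within the slides. Psmb5 differed by 0.22 (−0.21 to 0.65), Psmb6 by 0.34 (−0.11 to 0.79) and Psmb2 by 0.54 (0.07 to 1.01, adjusted p = 0.0548). Psmc1 at 0.21 ± 0.16, Psmc4 at 0.17 ± 0.18, Psmd7 at −0.29 ± 0.14 and Psme4 at 0.28 ± 0.15 were also not called.

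The count of 5 constitutive genes was 1 without naive replicate 2 or immunised replicate 3, 2 without naive replicate 3 or immunised replicate 1, and 3 without transfer replicate 2 or 3, and it was 1 under median scaling and 3 with slide as a block. Single calls were kept under 7 (Psmb3) to 23 (Psma1) of 23 alternatives. The strain differs between these groups, and strain, site and activation cannot be told apart.

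The 2 models of disease were compared directly within the CNS. None of the 47 tested proteasome genes was called in limma, against 3.22% of all genes tested in either direction (1.85% higher and 1.37% lower), and 7 passed at an unadjusted p under 0.05, against 20% of all genes tested. All 5 immunoproteasome and PA28 genes had positive differences, with a median of 0.31 (0.43, −0.03 and 0.39 within slides), while 14 of 31 constitutive genes did, with a median of −0.03, beside −0.04 over all genes. Psmb8 differed by 0.48 (95% interval 0.08 to 0.89, unadjusted p = 0.0245, adjusted p = 0.178) and Psmb9 by 0.47 (0.00 to 0.94, adjusted p = 0.249). Psme2 differed by 0.31 (−0.13 to 0.76), Psmb10 by 0.23 (−0.50 to 0.96) and Psme1 by 0.13 (−0.25 to 0.51). The second Psme2 probe had means of 4.52 in immunised and 3.60 in transfer samples. Tap1, which shares its promoter region with Psmb9 and transports peptides into the endoplasmic reticulum, differed by 0.80 ± 0.31 and was not called (adjusted p = 0.186).

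Of constitutive catalytic genes, Psmb7 differed by 0.47 (95% interval 0.10 to 0.84, adjusted p = 0.153), Psmb5 by −0.26 (−0.68 to 0.17) and Psmb6 by −0.29 (−0.74 to 0.16) between immunised and transfer samples. In the other roles the lowest adjusted p-values, none called, belonged to Psma6 at 0.25 ± 0.18, Psma5 at 0.21 ± 0.19, Psmb2 at 0.46 ± 0.21, Psmb1 at 0.44 ± 0.25, Psmc5 at −0.30 ± 0.19, Psmc1 at −0.15 ± 0.16, Psmd2 at −0.30 ± 0.16 and Psmd3 at −0.23 ± 0.14. The inhibitor Psmf1 differed by 0.49 ± 0.29. Leaving out any of the 12 arrays in turn called 0 constitutive and 0 immunoproteasome genes here.

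Since each inducible catalytic subunit takes the place of 1 constitutive subunit in the assembled protease, the log2 difference within each pair was followed array by array. The difference depends on the brightness of both probes, so it shows unequal change between groups and not a ratio of transcripts, and array-wide scaling by a constant cancels from it. An exact two-sided permutation test of 3 against 3 arrays cannot go below p = 0.1, and with Benjamini-Hochberg adjustment over 15 tests the lowest adjusted p was 0.188, so no shift could pass.

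Psmb8 minus Psmb5 was −0.15, −0.33 and −0.30 in immunised, −0.60, −0.90 and −1.49 in transfer, −0.72, −0.82 and −0.52 in culture and −0.33, −0.13 and −0.54 in naive samples. The transfer group lay below both the immunised and the naive groups without overlap. The shift was −0.66 for transfer against naive samples and 0.74 for immunised against transfer samples (exact p = 0.1 each), while immunised against naive samples gave 0.08 with overlap. Without transfer replicate 3 the first shift was −0.42.

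Psmb9 minus Psmb6 was −0.08, −0.22 and −0.09 in immunised, −0.58, −0.82 and −1.27 in transfer, −0.04, −0.29 and −0.40 in culture and −0.12, 0.47 and 0.03 in naive samples. The transfer group lay below every other array. Its shift was −1.02 against naive and −0.65 against culture samples, and immunised against transfer samples gave 0.76 (exact p = 0.1 each). In both pairs the shift against naive cells came from an inducible gene with a negative difference and a constitutive gene with a positive one, and only the rise of Psmb6 was called.

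Psmb10 minus Psmb7 took another course. It was 3.48, 3.39 and 3.47 in immunised, 3.44, 3.79 and 3.82 in transfer, 3.15, 3.18 and 1.79 in culture and 3.73, 4.41 and 3.60 in naive samples. Culture lay below all other groups, with a shift of −1.21 against naive samples, and transfer against culture gave 0.98 (exact p = 0.1 each). Without culture replicate 3 these shifts were −0.75 and 0.52. Immunised against naive samples gave −0.47 without overlap, and −0.22 without naive replicate 2. Shifts of the other comparisons, whose groups overlapped, ranged from −0.37 to 0.08.

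**Figure D4:**
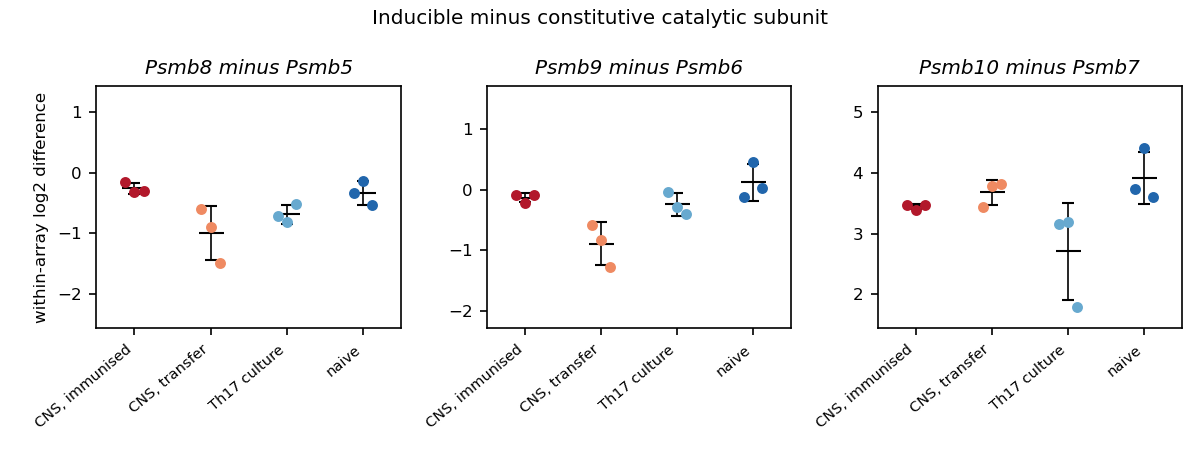
Points are within-array log2 differences of an inducible minus its constitutive catalytic gene on the 3 arrays of each group, and bars are the mean ± SD. The transfer group is lowest in the first and second panels, and culture, with 1 array at 1.79, in the third.

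Of the members that fell relative to naive cells, all 4 in immunised and both in transfer samples were assembly chaperones, while in culture 0 chaperones fell. The rings are built with the help of the chaperones encoded by Psmg1 to Psmg4, and the ATPase base with that of Psmd5, Psmd9 and Psmd10. In transfer relative to naive samples 2 of 7 fell and 1 rose, against 26.5% and 21.2% of all genes tested, so the falls were near the background. In immunised relative to naive samples 4 of 7 fell and 2 rose, against 27.7% and 20.6% of all genes tested. The falls of Psmg1, Psmg2, Psmg3 and Psmd5 there were called under all 23 alternatives. Psmg1 had 2.16, 2.30 and 2.34 in immunised, 2.79, 2.99 and 2.995 in transfer, 3.05, 2.54 and 3.73 in culture and 3.39, 3.41 and 3.19 in naive samples. Immunised samples were below all others, with a difference of −1.06 ± 0.25 against naive samples (adjusted p = 0.00577), and the second Psmg1 probe ran the same way, with means of 0.35 in immunised and 1.40 in naive samples.

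Psmg2, the partner of Psmg1 in a heterodimer that binds alpha subunits, had 1.21, 1.47 and 1.07 in immunised, 1.73, 1.69 and 1.67 in transfer, 2.03, 1.53 and 1.61 in culture and 2.07, 2.35 and 2.11 in naive samples. It fell by 0.93 ± 0.18 on the log2 scale in immunised samples (adjusted p = 0.00168) and by 0.48 ± 0.18 in transfer samples (adjusted p = 0.0457) relative to naive samples, the second call being lost under 11 of 23 alternatives. In culture it differed by −0.45 ± 0.18 and was not called (adjusted p = 0.0645). Psmg3 had 0.34, 0.05 and 0.28 in immunised, 0.65, 0.82 and 0.98 in transfer, 1.34, 0.97 and 1.30 in culture and 0.88, 0.98 and 0.91 in naive samples, and fell by 0.70 ± 0.16 in immunised relative to naive samples (adjusted p = 0.00468). Its difference between immunised and transfer samples, −0.59 ± 0.16, had an adjusted p of 0.0765, and that of Psmg1, −0.66 ± 0.25, one of 0.179. Psmg3 between transfer and culture samples, at −0.39 ± 0.16, was not called either.

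Psmd5 set both CNS groups apart from the other groups: it had 0.21, 0.27 and 0.10 in immunised, 0.26, 0.18 and 0.10 in transfer, 0.77, 0.82 and 0.82 in culture and 1.03, 0.98 and 0.83 in naive samples. It fell by 0.75 ± 0.13 in immunised (adjusted p = 0.000958) and by 0.77 ± 0.13 in transfer samples (adjusted p = 0.000849) relative to naive samples, and by 0.63 ± 0.13 in transfer relative to culture samples (adjusted p = 0.00569). These calls held under all 23 alternatives. The macrophage and monocyte markers given above also separate the CNS groups from the others.

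Psmd9 rose by 0.61 ± 0.20 in immunised (adjusted p = 0.0279) and by 0.60 ± 0.20 in transfer samples (adjusted p = 0.0307) relative to naive samples, and differed by 0.54 ± 0.20 in culture (adjusted p = 0.0543). These calls were lost under 6 and 8 of 23 alternatives. Its dimmer probe did not follow, with means of −1.63 in immunised, −1.39 in transfer, −1.05 in culture and −1.38 in naive samples. Psmd10, also known as gankyrin, was at the threshold in immunised samples, at 0.59 ± 0.22 (adjusted p = 0.04998), and its call was lost under 13 of 23 alternatives.

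The largest difference of any member was that of Psme3, which encodes the nuclear activator PA28 gamma. Psme3 had 0.83, 0.44 and 1.97 in immunised, 1.42, 2.95 and 3.28 in transfer, 0.73, 0.63 and 0.84 in culture and 0.16, 0.65 and −0.34 in naive samples. All transfer arrays were above all culture and naive arrays, with differences of 1.82 ± 0.50 against culture (adjusted p = 0.0213) and 2.40 ± 0.50 against naive samples (adjusted p = 0.00284), and 1 immunised array lay within the transfer range. Immunised samples differed by 0.92 ± 0.50 from naive samples and by −1.48 ± 0.50 from transfer samples, neither called. The only Psme3 probe (chr11:101184289-101184348, plus strand, mm9, 60 bases) is rich in the dinucleotide TG, and its bases 19 to 48 are shown with the TG repeats in capitals, because other probes with such repeats moved alike.
Psme3 probe, bases 19 to 48: tgcacaTGTGTGTGTGTGttcgTGTGTGTG
The probe holds 16 TG, against at most 9 in the chosen probe of any other member. Of 65 probes of other genes with at least 15 TG that were well above background on all 12 arrays, 56 correlated with Psme3 at r of at least 0.95 over the 12 arrays, with a median r of 0.99. Probes with at most 8 TG had a median r of −0.16. The median level of these TG-rich probes was 3.89, 3.38 and 5.23 in immunised, 4.56, 6.29 and 6.67 in transfer, 3.70, 3.57 and 3.92 in culture and 3.14, 3.69 and 2.98 in naive samples. The profile of the Psme3 probe can thus not be told apart from that of TG-rich probes of other genes, and the Psme3 differences are not counted as a result on the gene.

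**Figure D5:**
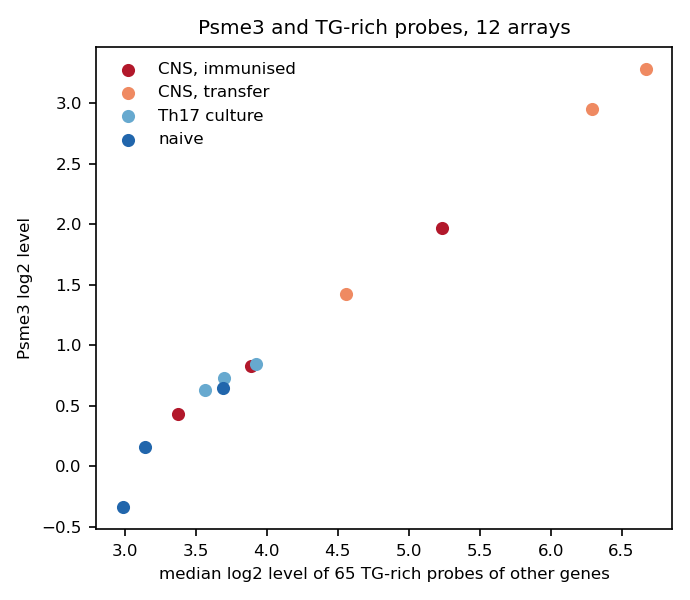
Each point is 1 of 12 arrays, with the median log2 level of 65 TG-rich probes of other genes on the x axis and the log2 level of Psme3 on the y axis. The points lie along a line, with transfer replicates 2 and 3 at the upper end and naive replicate 3 at the lower end.

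Genes that act around the proteasome were taken from lists, and their counts are from the same limma fit. Of 22 measured genes of ubiquitin supply and proteasome partners, 8 rose and 2 fell in culture, 3 rose and 2 fell in transfer and 3 rose and 3 fell in immunised samples, each relative to naive samples, with list medians of 0.32, 0.23 and 0.12. These are 45.5%, 22.7% and 27.3% of the list, against 40.1%, 47.7% and 48.4% of all genes called in either direction, so the counts are near or below the background. The shuttle factor Ubqln2 fell by 1.39 ± 0.15, 0.91 ± 0.15 and 0.80 ± 0.15 on the log2 scale in culture, transfer and immunised samples. Pomp, the chaperone that matures the core, rose by 0.93 ± 0.17, 0.53 ± 0.17 and 0.65 ± 0.17 in the same order. In culture Nploc4, an adaptor of the segregase p97, also rose (0.92 ± 0.16), and in both CNS groups so did Sem1, a small lid subunit (0.61 ± 0.18 in transfer and 0.58 ± 0.18 in immunised samples). Between transfer and culture samples 1 rose and 2 fell, namely Ubqln2 at 0.47 ± 0.15, and Nploc4 and Uba1, the ubiquitin-activating enzyme, at −0.59 ± 0.16 and −0.57 ± 0.13. These are 13.6% of the list, below the 28.3% of all genes. Ecpas, which binds the proteasome, was the 1 gene called between immunised and transfer samples, at −1.14 ± 0.24 (4.55% of the list, against 3.22% of all genes). Ecpas also fell in immunised relative to naive samples (−0.63 ± 0.24). Counts of called genes in this list moved with single arrays: the 10 in culture were 6 without culture replicate 1, naive replicate 2 or naive replicate 3, and the 6 in immunised samples were 3 without immunised replicate 3, naive replicate 2 or naive replicate 3. The 5 in transfer samples were 1 without naive replicate 2, 2 without naive replicate 3 or transfer replicate 2, and 3 without transfer replicate 1 or 3. The 3 between transfer and culture samples were 1 without transfer replicate 2 or 3, and Ecpas was lost without any of the immunised replicates and without transfer replicates 2 or 3.

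Of 14 genes of the transcription of proteasome and class I genes, 5 rose and 4 fell in culture, 6 rose and 4 fell in transfer and 5 rose and 2 fell in immunised samples relative to naive samples. These are 64.3%, 71.4% and 50% of the list, against 40.1%, 47.7% and 48.4% of all genes. In culture Nlrc5, the class I transactivator, fell by 1.92 ± 0.52, Ifngr1, a chain of the interferon-gamma receptor, rose by 1.80 ± 0.24, and Irf8, an interferon regulatory factor, rose by 1.43 ± 0.43. In transfer samples Irf8 rose by 4.05 ± 0.43 and Ifngr1 by 1.60 ± 0.24. In immunised samples Irf8 rose by 3.80 ± 0.43, Ifngr1 by 2.22 ± 0.24 and Nfe2l2, the antioxidant factor Nrf2, by 1.28 ± 0.30. Between transfer and culture samples 4 rose and 1 fell, with Irf8 at 2.63 ± 0.43, Nfe2l2 at 1.41 ± 0.30 and Ifngr2 at 1.35 ± 0.24. These counts are 35.7% of the list, against 28.3% of all genes. Irf8 is also abundant in myeloid cells, and the macrophage and monocyte markers given above were also higher in the CNS groups, and their part was not tested. Between immunised and transfer samples limma called 0 of 14, with 6 at an unadjusted p under 0.05 (20% of all genes), and 1 was called without culture replicate 3.

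Of 11 class I antigen processing genes, 1 rose and 2 fell in culture, 2 rose and 1 fell in transfer and 1 rose and 1 fell in immunised samples relative to naive samples. These are 27.3%, 27.3% and 18.2% of the list, below the 40.1%, 47.7% and 48.4% of all genes. Tapbpl, a peptide editor, fell in each, by 1.86 ± 0.22, 1.43 ± 0.22 and 0.72 ± 0.22 on the log2 scale. The chaperone Canx rose in culture (0.91 ± 0.27) and transfer samples (0.92 ± 0.27), Pdia3 of the peptide-loading complex in transfer (0.56 ± 0.16) and immunised samples (0.47 ± 0.16), and H2-D1, a class I heavy chain, fell by 0.48 ± 0.16 in culture. H2-D1 was also the 1 gene called between transfer and culture samples, at 0.51 ± 0.16 (9.09% of the list, against 28.3% of all genes). Between immunised and transfer samples limma called 0, with 2 at an unadjusted p under 0.05 (20% of all genes). The 3 called in culture were 1 without naive replicate 2 and 5 without culture replicate 3, and the 3 in transfer samples were 1 without naive replicate 3 or transfer replicate 3. The 2 in immunised samples were 0 without immunised replicate 2 or naive replicate 2, and 1 without immunised replicates 1 or 3 or naive replicates 1 or 3. The call of H2-D1 between transfer and culture samples was the only one of its comparison, where leaving out culture replicate 3 gave 3 calls, and 0 were left without culture replicate 2, immunised replicates 1 or 2, naive replicate 2 or any of the transfer replicates.

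Genes induced by interferon fell in culture and were higher in transfer than in culture samples. Of 14 measured, 0 rose and 9 fell in culture relative to naive samples, with a list median of −3.02, and 9 rose and 0 fell in transfer relative to culture samples, with a median of 3.28. Each count is 64.3% of the list, against 40.1% and 28.3% of all genes. Oas2, Oasl1 and Ifit3, antiviral effectors, fell by 5.84 ± 0.78, 5.66 ± 0.45 and 5.41 ± 1.22 in culture. Of the culture arrays, Ifit3, Oasl2 and Cxcl10 were well above background on 2 of 3 and Ifi44 on 1 of 3, so the sizes of their differences rest in part on values near background, while the other 10 genes were well above it on all 3. Cxcl10, a chemokine induced by interferon-gamma, Oasl1 and Ifi44 were higher in transfer than in culture samples, by 7.06 ± 1.05, 5.84 ± 0.45 and 5.31 ± 0.87, of which only that of Oasl1 compares groups with all arrays well above background. Relative to naive samples 2 rose in transfer, Cxcl10 at 4.31 ± 1.05 and Rsad2 at 1.77 ± 0.66, and 3 rose in immunised samples, Cxcl10 at 5.81 ± 1.05, Rsad2 at 2.34 ± 0.66 and Gbp3 at 2.06 ± 0.46. These are 14.3% and 21.4% of the list, below the 47.7% and 48.4% of all genes. Between immunised and transfer samples limma called 0, with 3 at an unadjusted p under 0.05 (20% of all genes) and a median of 0.74. Without culture replicate 3, the counts were 5 in transfer and 8 in immunised samples and 1 between them. Without naive replicate 2 they were 4 in transfer and 6 in immunised samples, and without culture replicate 1, immunised replicates 1 or 2, naive replicates 1 or 3 or any transfer replicate the count in transfer samples was 1. The medians of the 5 immunoproteasome and PA28 genes in culture against naive and in transfer against culture samples were −0.25 and −0.08, beside these medians of −3.02 and 3.28.

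Of 10 genes of autophagy, the other main route of protein degradation, 3 rose and 2 fell in culture, 3 rose and 0 fell in transfer and 4 rose and 0 fell in immunised samples relative to naive samples. These are 50%, 30% and 40% of the list, near or below the 40.1%, 47.7% and 48.4% of all genes. Gabarapl1, which marks autophagosomes, rose by 3.59 ± 0.19, 3.17 ± 0.19 and 2.71 ± 0.19, and Wipi1 by 3.58 ± 0.50, 3.18 ± 0.50 and 3.20 ± 0.50. Atg7, a conjugating enzyme, rose by 0.72 ± 0.24 in transfer and 0.98 ± 0.24 in immunised samples, and the kinase Ulk1 by 0.93 ± 0.29 in culture. Between transfer and culture samples Atg7 and Atg5 rose, by 1.48 ± 0.24 and 0.69 ± 0.21 (20% of the list, against 28.3% of all genes). Between immunised and transfer samples limma called 0, with 4 at an unadjusted p under 0.05 (20% of all genes). The 5 called in culture were 2 without naive replicate 1 and 3 without culture replicate 3 or naive replicate 3, and the 2 between transfer and culture samples were 1 without any of the culture replicates, immunised replicate 1, or transfer replicates 2 or 3. Without culture replicate 3, 1 gene was called between immunised and transfer samples.

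Across all tested genes, the 5 whose levels followed Psmb8 most closely over the 12 arrays, with Pearson r of 0.86 to 0.93, were transcripts without a gene symbol in the files or in RefSeq. For Psmb5 they were Tpmt (r = 0.94), Ndufc1 (0.93), Ndufa11b (0.93), Uxt (0.93) and Pex11g (0.92). These are descriptions over 12 arrays that share scaling and groups.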

How the data were processed

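RNA was extracted with a spin-column kit and labelled with Cy3, per the labels' protocols. Spot intensity values were made by the authors with Agilent Feature Extraction 10.7.3.1 on mm9 probe coordinates, per the file headers. The deposited series matrix holds intensity values whose normalization is not given in the sources used here, and served as an alternative. Repeated spots were averaged without outlier flags (39405 probes), log2 was taken of the processed signal, and each array's own 75th percentile, taken over averaged probes that are no controls, was subtracted. Genes were named by accession, symbol or synonym, and 8054 probes kept the file's name. The brightest probe stood for a gene, and genes were tested if some group had 3 of 3 arrays well above background. limma 3.58.1 in R 4.3.3 fitted all 12 arrays (8 residual and 2.485 prior degrees of freedom), with Benjamini-Hochberg adjustment over 18631 genes, called under 0.05. The 5 comparisons share samples. All limma tests are two-sided, and SD and SE are over 3 arrays and from the fit. Tests were checked on simulated data. Figures used matplotlib 3.10.9.

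The members and lists were chosen with earlier results of these data known. Named were the 5 immunoproteasome and PA28 and 3 constitutive catalytic genes, the 2 members of lowest adjusted p of each other role, called members that opposed their role, and the 3 called genes of largest change of each list. 1 list gene that this rule names and 1 cell type marker are not reported here by name. Further called members, Tap1 and the comparison with TG-rich probes, with its limits, were added after their values were seen. The percentile had first been taken over spots, and was changed to probes, as the design words it, after the counts under the first had been seen. Alternatives were other scalings, filters, probe rules and priors, the replicate block, the 6 arrays of a comparison alone, and leaving out each array.

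The replicate numbers came from the labels, and deviations of same-numbered samples correlated at −0.20 to 0.20, so they were not taken as pairs. p-values measure the spread between these samples.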

Additional observations from a re-analysis of the deposited data

How the results depend on the processing

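The counts of constitutive genes called rested on the scaling. The constitutive count higher in culture than in naive cells (8) was 2 under median scaling, quantile normalization, normexp with quantile, the series matrix and only the 6 arrays compared, 4 with no filter on dim probes and 4 with the replicate block, and 1 gene was lower under normexp with quantile. Immunoproteasome genes lower there (1) were 0 under median scaling, no filter and the 6 arrays, and 2 under quantile, normexp and series matrix values. Transfer against culture, constitutive lower (2), gave 0 under median scaling, no filter and the 6 arrays and 1 with the replicate block. Transfer against naive, constitutive higher (3), gave 0 under median scaling, 1 under quantile, normexp and series matrix values and 5 with a trended robust prior, and immunoproteasome lower (0) gave 2 with the mean over all probes and under normexp, and 1 under quantile and series matrix values. Immunised against naive, constitutive higher (5), gave 3 with the percentile over spots, quantile, series matrix and replicate block, 2 with no filter and 1 under median scaling, and constitutive lower (0) gave 2 under normexp and 1 under quantile and series matrix values. The percentile over spots, computed first and listed as an alternative after seeing the data, gave 7 for culture against naive and 2 for transfer against naive samples. Median scaling moved the median of all genes to 0.03 in culture against naive and to −0.21 in transfer against culture samples, and the constitutive medians there were 0.42 and −0.23. The constitutive median in culture was 0.11 under quantile normalization, beside −0.10 over all genes.

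Leaving out 1 array gave 1 to 10 constitutive genes higher in culture, 0 to 1 immunoproteasome genes lower there, 0 to 4 constitutive lower and 0 to 1 higher of either class in transfer against culture, 0 to 8 constitutive higher in transfer and 1 to 6 in immunised against naive samples. The other proteasome counts, all 0, did not move.

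Pair shifts reversed for Psmb10 minus Psmb7 in immunised against transfer samples (0.114 under normexp, 0.084 under quantile and 0.083 under series matrix values) and in transfer against naive samples without naive replicate 2 (0.016, with a range of −0.391 to 0.016 over left-out arrays), and for Psmb8 minus Psmb5 in immunised against naive samples (−0.009 under normexp, and −0.027 without naive replicate 3, with a range of −0.027 to 0.175 over left-out arrays). The cause was not tested.

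Genes called in the other lists, in either direction, moved as follows. In the class I list, culture against naive (3) gave 1 with only the 6 arrays and 5 with a trended prior, immunised against naive (2) gave 0 under median scaling, 1 with no filter or with the replicate block and 5 under normexp, immunised against transfer (0) gave 1 under normexp, and transfer against culture (1) gave 0 under median scaling, no filter, the 6 arrays and the replicate block, and 2 under normexp, quantile and series matrix values. In the transcription list, culture against naive (9) gave 4 with the 6 arrays, and immunised against transfer (0) gave 1 under normexp and with the 6 arrays. In the ubiquitin list, culture against naive (10) gave 6 under median scaling, quantile, series matrix values and the 6 arrays, immunised against naive (6) gave 1 under median scaling and 10 under normexp, immunised against transfer (1) gave 0 under median scaling and no filter, transfer against culture (3) gave 5 under normexp and 0 with the 6 arrays, and transfer against naive (5) gave 1 under median scaling and 3 under quantile and series matrix values. In the interferon list, the 6 arrays gave 5 for immunised against naive (3), 3 for immunised against transfer (0) and 4 for transfer against naive (2), the last gave 1 under median scaling, no filter, the replicate block and a filter over all 12 arrays, and that filter gave 5 for transfer against culture (9). In the autophagy list, culture against naive (5) gave 3 under median scaling and with the 6 arrays, and transfer against culture (2) gave 1 under median scaling, no filter and the 6 arrays.

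Over left-out arrays the class I counts ranged, for culture, transfer and immunised against naive, transfer against culture and immunised against transfer in this order, over 1 to 5, 1 to 4, 0 to 2, 0 to 3 and 0 to 0, those of transcription over 7 to 9, 8 to 12, 5 to 9, 5 to 6 and 0 to 1, those of ubiquitin over 6 to 10, 1 to 7, 3 to 8, 1 to 4 and 0 to 1, those of interferon over 9 to 11, 1 to 5, 2 to 8, 7 to 12 and 0 to 1, and those of autophagy over 2 to 5, 2 to 4, 4 to 5, 1 to 3 and 0 to 1. Of the tests of named genes under an alternative, 2169 stayed on their side of the threshold, 238 lost their call, 54 gained one and 0 reversed. The replicate number is also the slide, so the replicate block is the slide block, although the numbers were not shown to pair samples.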
